A study of Mus musculus with 7 samples.

Results

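SR proteins and heterogeneous nuclear ribonucleoproteins (hnRNPs) are the main families of RNA-binding proteins that decide which exons enter an mRNA. Their genes were taken as the protein-coding rows whose symbol is Srsf followed by a number or begins with Hnrnp. This gave 31 genes, 11 SR genes and 20 hnRNP genes, of 55536 genes in the table. A further 2 rows with such symbols were annotated as pseudogenes and stayed out. RNA came from whole brains of C57BL/6 mice at postnatal day 0. The Setd2SRI/wt animals (3 libraries, 1 male and 2 females) carry, on 1 of their alleles of Setd2, the R2483H substitution in the SRI domain, and they were compared with wild-type littermates (4 libraries, 2 males and 2 females). No animal was treated.

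SR proteins hold an RNA-recognition motif and a tail rich in arginine and serine. They bind exons, recruit the spliceosome and mostly favour exon inclusion, and kinases of the SRPK and CLK families set their activity by phosphorylating the tail. hnRNPs coat nascent transcripts and often silence exons, so the balance of both families shapes alternative splicing, which is especially rich in the brain. SETD2 trimethylates histone H3 at lysine 36 along transcribed genes, its SRI domain binds elongating RNA polymerase II, and this mark is known to be read by proteins that recruit splicing regulators such as SRSF1 and PTBP1. In human cells SETD2 has also been found to bind HNRNPL. The counts are per gene, so they measure how much RNA of each splicing factor was present and not which exons were used.

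Total counts ran from 5538908 to 12896134 in the Setd2SRI/wt libraries and from 4192021 to 16064644 in the wild-type libraries. Setd2 itself had 80.0, 95.1 and 116 CPM (counts as a rate of the library's total, scaled by the trimmed mean of M-values, TMM) in the Setd2SRI/wt male and females 1 and 2, against 98.5, 97.3, 107 and 111 CPM in wild-type males 1 and 2 and females 1 and 2. The groups overlapped (log2 fold change -0.14 ± 0.11, SE, adjusted p = 0.798 in edgeR), and a missense allele need not alter its mRNA level, so this does not check the genotype labels. The summed markers of neurons were at 6516 to 7734 CPM in Setd2SRI/wt and 6151 to 7023 CPM in wild type, with 0 of the 8 at 0 in all libraries. Pituitary markers summed to 14.3 CPM in Setd2SRI/wt female 1 and 29.8 CPM in wild-type female 2, and to at most 5.23 CPM in the other 5 libraries. Transcripts of the mitochondrial genome took 9.61% of the counts in the Setd2SRI/wt male and 7.36% to 8.11% elsewhere. Of the immediate-early and heat shock genes 0 of 9 had an unadjusted p under 0.05, against 8.95% of all tested genes. Junb (log2 fold change -0.50, adjusted p = 0.584 in edgeR) and Fos (-0.49, adjusted p = 0.708) were nearest to that limit. These genes summed to 723, 867 and 1023 CPM in the Setd2SRI/wt male and females 1 and 2, with 850 to 1031 CPM in wild type. The male was thus the lowest of the 7 libraries. Fewer cells of a type and less RNA per cell cannot be told apart in whole-brain RNA.

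The promoters of the highest and the lowest gene of each family by level per exonic length are shown because the motif counts of the next paragraph can be read in them. They are the 250 bases before the most upstream RefSeq start on GRCm38.p6, written 5′ to 3′ on the gene's strand. Capitals mark matches, on either strand, to CCAAT, to the GC box GGGCGG, to the ETS letters CCGGAAG and to TGACGT, part of the cAMP response element. The highest are Hnrnpa2b1 (chr6:51469895-51470144, minus strand) and Srsf5 (chr12:80945249-80945498, plus strand), and the lowest are Hnrnpr (chr4:136310692-136310941, plus strand) and Srsf4 (chr4:131873387-131873636, plus strand). None of the marked motifs stands in all 4.
Hnrnpa2b1: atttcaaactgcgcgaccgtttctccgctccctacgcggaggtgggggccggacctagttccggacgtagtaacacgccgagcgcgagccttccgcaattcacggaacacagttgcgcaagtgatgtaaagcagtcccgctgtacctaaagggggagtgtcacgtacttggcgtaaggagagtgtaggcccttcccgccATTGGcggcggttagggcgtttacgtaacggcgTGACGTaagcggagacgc
Srsf5: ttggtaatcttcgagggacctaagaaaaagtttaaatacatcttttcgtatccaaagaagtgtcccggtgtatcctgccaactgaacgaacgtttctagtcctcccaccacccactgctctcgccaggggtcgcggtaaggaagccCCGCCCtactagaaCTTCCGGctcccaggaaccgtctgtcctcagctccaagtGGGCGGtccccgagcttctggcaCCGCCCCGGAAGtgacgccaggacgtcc
Hnrnpr: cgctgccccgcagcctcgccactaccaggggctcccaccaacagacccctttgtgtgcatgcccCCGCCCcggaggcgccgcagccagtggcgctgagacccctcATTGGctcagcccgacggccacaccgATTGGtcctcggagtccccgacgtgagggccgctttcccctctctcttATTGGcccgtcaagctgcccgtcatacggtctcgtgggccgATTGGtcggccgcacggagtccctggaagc
Srsf4: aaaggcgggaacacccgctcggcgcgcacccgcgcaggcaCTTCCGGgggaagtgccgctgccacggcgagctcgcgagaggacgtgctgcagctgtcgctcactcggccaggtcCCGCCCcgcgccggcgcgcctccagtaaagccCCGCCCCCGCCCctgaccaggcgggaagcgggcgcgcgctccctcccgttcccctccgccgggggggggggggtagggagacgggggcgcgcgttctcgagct

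RefSeq listed such a promoter for 29 of the 31 genes, the 11 SR genes and 18 hnRNP genes. The GC box stood in 23 of the 29 (79.3%), against 42.7% of 17492 promoters of protein-coding genes. The promoters of the SR and hnRNP genes also had a median GC content of 65.2%, against 55.2% in all, and the part of that in the GC box count was not tested. CCAAT, the letters bound by the factor NF-Y, stood in 12 of 18 hnRNP promoters (66.7%) and 3 of 11 SR promoters (27.3%), with 36.5% in all promoters, and the difference between the families was not tested. Hnrnpr above holds 4 matches to CCAAT, as do Hnrnpa1, Hnrnpc and Hnrnpl. ETS letters were present in 6 of 29 (all promoters 9.15%), TGACGT in 7 of 29 (7.53%) and TATAAA in 3 of 29 (12.4%). These are matches of letters over a short window and do not show binding.

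All 31 genes passed the filter on low counts. On the scale of RPKM (TMM-scaled CPM per 1000 bases, over all annotated exons of GENCODE vM21), Hnrnpa2b1 led with 95.7 ± 6.73 (SD, n = 7), followed by Srsf5 with 93.7 ± 7.48 and Hnrnpa1 with 81.5 ± 6.01 RPKM. The levels of the first pair differed by less than their spread. Hnrnph1 (68.6 ± 5.73), Hnrnpu (66.2 ± 4.31) and Hnrnpk (60.9 ± 2.79) came next. Hnrnph1 and Hnrnpu differed by less than either SD, and Hnrnpu and Hnrnpk by more. At the low end stood Hnrnpr (5.28 ± 0.342), Srsf4 (5.82 ± 0.684), Srsf12 (7.37 ± 0.564) and Hnrnpll (7.81 ± 0.584 RPKM). They lay above 49.6% (Hnrnpr) to 61.5% (Hnrnpll) of the tested protein-coding genes. Hnrnpr has 22199 annotated exonic bases, the most of the 31 genes, and a gene with long, rarely used exons is understated on this scale. Altogether 19 of the 31, 6 SR genes and 13 hnRNP genes, lay above 90% of the tested protein-coding genes. The medians were 31.9 RPKM over the SR genes and 39.1 RPKM over the hnRNP genes.

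**Figure D1:**
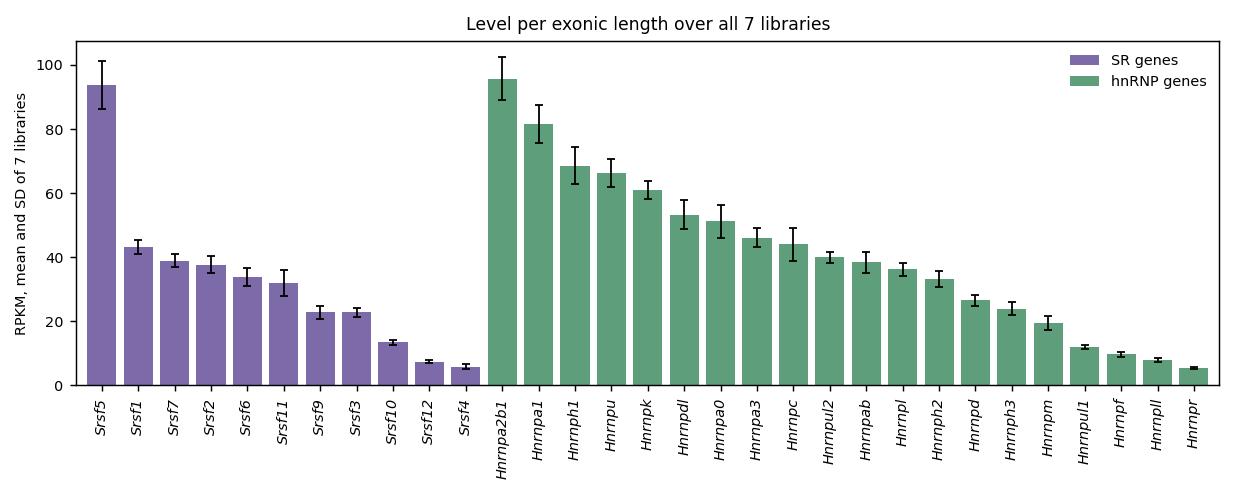
Level of each SR and hnRNP gene in RPKM, on a linear axis from 0, as the mean of 7 libraries with SD bars. Hnrnpa2b1 (95.7) and Srsf5 (93.7) stand highest, and Hnrnpr (5.28) and Srsf4 (5.82) lowest.

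The level varied little between brains. The coefficient of variation of CPM over the 7 libraries had a median of 7.48% for the 31 genes, from 4.31% for Hnrnpul2 to 12.8% for Srsf11. It was 14.6% over all 17260 tested genes, and 9.96% over the 8001 tested genes at or above the mean CPM of the least abundant of the 31. Those 8001 genes share only that lower limit, and the part of level in the difference was not tested. The lists of other splicing and decay genes below had medians of 8.03% (neuronal regulators) to 9.84% (hnRNP-like genes). Together the SR genes took 0.183%, 0.154% and 0.166% of the counts in the Setd2SRI/wt male and females 1 and 2, against 0.161%, 0.158%, 0.169% and 0.166% in wild-type males 1 and 2 and females 1 and 2. For the hnRNP genes these shares were 0.484%, 0.454% and 0.485% in Setd2SRI/wt, against 0.475%, 0.475%, 0.493% and 0.484% in wild type. The highest and the lowest SR share both came from Setd2SRI/wt animals. Of the hnRNP shares the lowest came from Setd2SRI/wt female 1 and the highest from wild-type female 1, so the genotypes overlapped for both families. As a share of coding counts without mitochondrial genes, the Setd2SRI/wt male was highest and female 1 lowest for both families. For the hnRNP genes these were 0.553% and 0.508%, with 0.527% to 0.552% in wild type.

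By genotype, 0 of the 31 genes passed an adjusted p of 0.05 in edgeR's quasi-likelihood test, where 0.0174% of 17260 tested genes did. An unadjusted p under 0.05 was reached by 0 of the 31, against 8.95% of all tested genes (3.84% higher and 5.11% lower in Setd2SRI/wt). For 0 of the 31 did the 3 Setd2SRI/wt libraries lie wholly above or below the 4 wild-type libraries, against 7.91% of all tested genes (3.83% above and 4.08% below). Log2 fold changes (Setd2SRI/wt over wild type) ran from -0.11 for Hnrnph3 to 0.14 for Srsf11, with adjusted p-values of 0.819 to 0.993. The 95% intervals of the 31 fold changes reached down to -0.36 (Srsf12) and up to 0.40 (Srsf11), that is 0.781-fold and 1.32-fold, so no interval of these 31 genes held a larger change in either direction. The SE lay between 0.0962 and 0.143. The median log2 fold change was 0.04 over the SR genes, 10 of 11 positive, and -0.02 over the hnRNP genes, 8 of 20 positive, while all tested genes had a median of 0.01 with 51.4% positive and 48.6% negative. Scaled by total counts, 8 of 11 SR genes were positive with a median of 0.01.

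**Figure D2:**
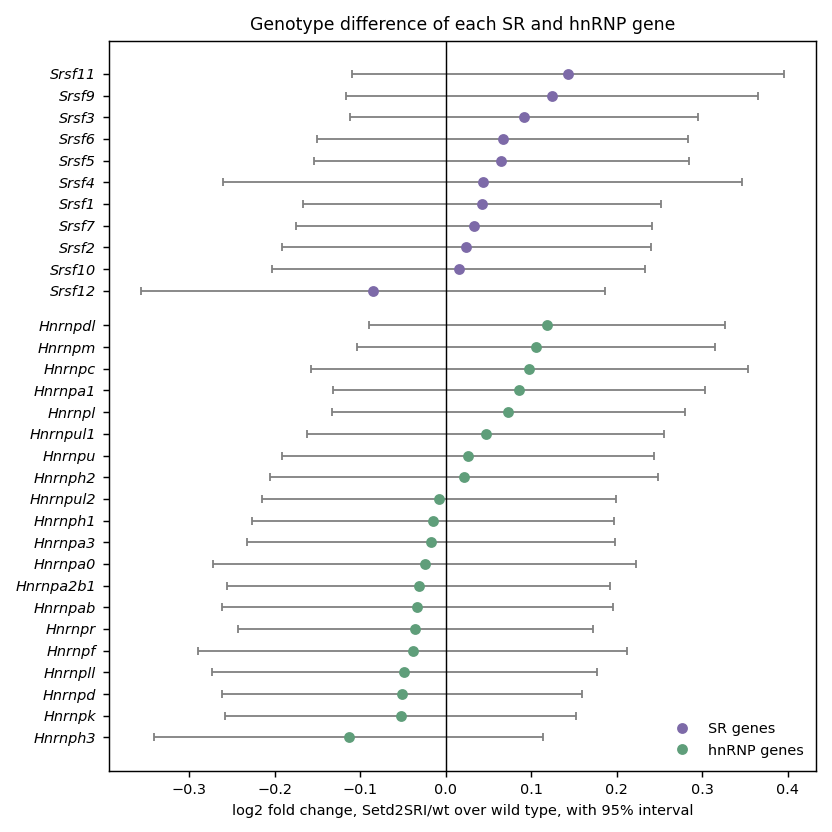
Log2 fold change of each SR gene (upper block) and hnRNP gene (lower block), Setd2SRI/wt over wild type, with its 95% interval from edgeR's quasi-likelihood fit. Every interval spans 0, and the points run from -0.11 (Hnrnph3) to 0.14 (Srsf11).

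The libraries differed from each other within both genotypes. In the Setd2SRI/wt male 9 of 11 SR genes lay above their mean over the libraries, by a median of 0.12 on the log2 scale, and 7 of the 11 had their highest value of all libraries there. In Setd2SRI/wt female 1 only 3 of 11 lay above it (median -0.05), and 5 of the 11 had their lowest value there. Setd2SRI/wt female 2 was between them, with 7 of 11 above and a median of 0.04. Among wild-type brains, female 1 had 9 of 11 above (median 0.04), male 1 and female 2 had 4 of 11 each (medians -0.02 and -0.04), and male 2 had 3 of 11 (median -0.07), lower than Setd2SRI/wt female 1. Of all 17260 tested genes, 8789 to 9044 lay above their mean in each library. Without the male the median SR fold change was -0.04 with 7 of 11 negative. The male was also the library with the highest mitochondrial share (9.61%) and the lowest sum of immediate-early and heat shock genes (723 CPM). The part of these in the SR values was not tested. The male, Setd2SRI/wt female 1 and wild-type male 2 were the shallowest libraries (5538908, 6580814 and 4192021 counts), and the part of depth was not tested either. The share of all tested genes with their highest or lowest value in each library was not counted. Among hnRNP genes, 13 of 20 lay above their mean in Setd2SRI/wt female 2 and 7 of 20 in Setd2SRI/wt female 1 (medians of 0.06 and -0.10), with 15 of 20 in wild-type female 1 and 8 of 20 in wild-type female 2 (medians of 0.05 and -0.02).

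**Figure D3:**
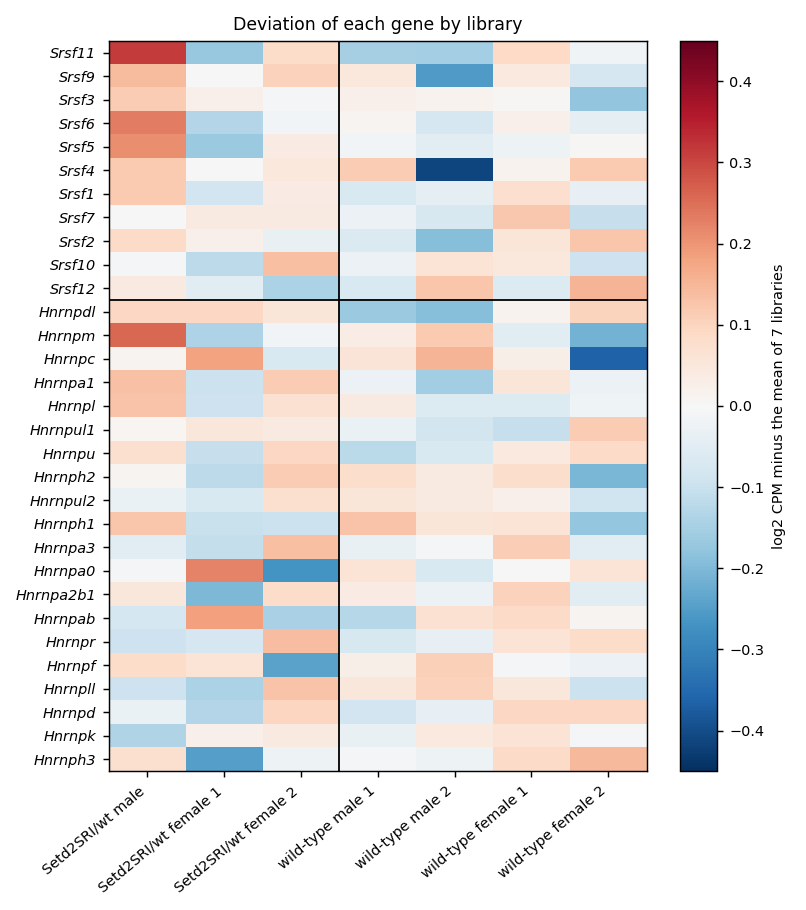
Log2 CPM of each gene in each library minus its mean over the 7 libraries (red above, blue below), with Setd2SRI/wt libraries left of the vertical line and SR genes above the horizontal line. The Setd2SRI/wt male column is mostly red among SR genes (9 of 11 above the mean), Setd2SRI/wt female 1 mostly blue (3 of 11 above), and wild-type female 1 (9 of 11) and male 2 (3 of 11) span the same counts.

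Srsf11 (ENSMUSG00000055436), an SR protein known from mouse neural cells to work with SRRM4 on neuronal microexons, had the largest fold change of the 31. It was at 333, 238 and 283 CPM in the Setd2SRI/wt male and females 1 and 2, against 241, 240.3, 285 and 265 CPM in wild-type males 1 and 2 and females 1 and 2. The male was the highest and female 1 the lowest of the 7 brains, so the 2 extremes were both mutants (log2 fold change 0.14 ± 0.12, SE, adjusted p = 0.819 in edgeR). Without the Setd2SRI/wt male the value was -0.08. Without Setd2SRI/wt female 1 it was 0.26 with an unadjusted p of 0.0421 and an adjusted p of 0.476 in edgeR. Srsf11 also has 19 annotated transcripts, 11 of them with a retained intron.

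Srsf1, the founding member of the family, and its close relative Srsf9 were next to each other in role but not in level. Srsf1 averaged 250.4 ± 17.5 CPM in Setd2SRI/wt (SD, n = 3) and 243 ± 10.7 CPM in wild type (SD, n = 4), a log2 fold change of 0.04. Srsf9 had 41.4, 37.4 and 40.3 CPM in the Setd2SRI/wt libraries, against 38.7, 31.4, 38.7 and 35.6 CPM in the wild-type libraries (log2 fold change 0.12 ± 0.11, SE, adjusted p = 0.847 in edgeR). Its lowest value came from wild-type male 2, the shallowest library, and the groups overlapped. Srsf2, the enhancer-binding protein once called SC35, lay at 109 to 118 CPM in Setd2SRI/wt and 97.3 to 121 CPM in wild type. Exons of Mettl23 and Mfsd11 lie opposite to 15.6% and 9.74% of its exonic bases, and the strand setting of the counting is not given in the sources used here.

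Srsf3 and Srsf7 act in splicing and also in the export of mRNA. Srsf3 had 194, 182 and 178 CPM in Setd2SRI/wt, against 182, 181, 179.9 and 158 CPM in wild type (log2 fold change 0.09 ± 0.10, SE, adjusted p = 0.871 in edgeR). Apart from wild-type female 2, which was low, 6 brains lay between 178 and 194 CPM. Srsf7 averaged 140.4 ± 2.47 CPM in Setd2SRI/wt and 136 ± 9.68 CPM in wild type.

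Srsf4, Srsf5 and Srsf6 are close relatives that each hold a pair of RNA-recognition motifs. Srsf5, the most abundant SR gene, had 431, 332 and 383 CPM in Setd2SRI/wt, against 369.6, 361, 367 and 374 CPM in wild type. The wild-type brains were close together (368 ± 5.39 CPM, SD, n = 4) and the mutants were spread on both sides of them (382 ± 49.6 CPM, SD, n = 3). Srsf6 had the same layout, with 191, 148 and 161 CPM in Setd2SRI/wt, against 164, 154, 165 and 158 CPM in wild type. Their log2 fold changes were 0.06 and 0.07. Srsf4 had 22.3, 20.5 and 21.3 CPM in Setd2SRI/wt, against 22.3, 15.5, 20.8 and 22.3 CPM in wild type. Its value in wild-type male 2 rested on 65 counts, where counting error alone is 12.4%. The noncoding gene Gm12992 lies opposite to 43.0% of the exonic bases of Srsf4, so its count is uncertain.

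Srsf10, which turns into a splicing repressor when dephosphorylated, averaged 93.9 ± 8.28 CPM in Setd2SRI/wt and 93.4 ± 4.63 CPM in wild type. Srsf12, its relative, was the 1 SR gene with a negative value. It had 23.8, 22.4 and 20.9 CPM in Setd2SRI/wt, against 22.1, 25.2, 22.2 and 25.7 CPM in wild type (log2 fold change -0.08 ± 0.13, SE, adjusted p = 0.922 in edgeR), and the value was -0.006 without wild-type female 2.

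**Figure D4:**
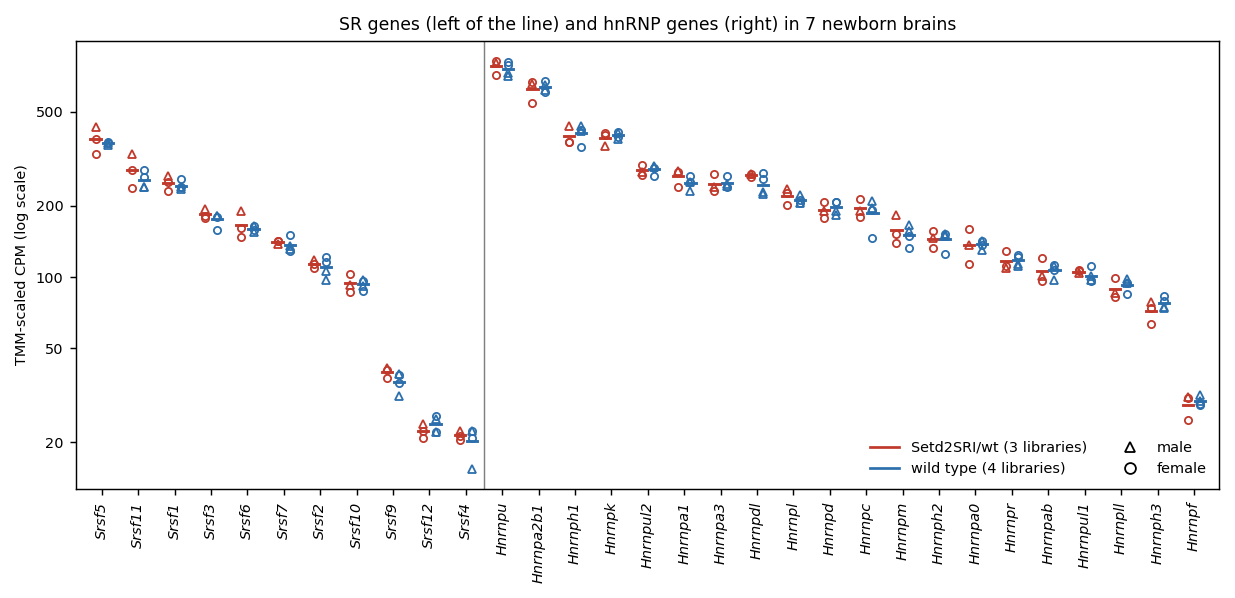
TMM-scaled CPM (log axis) of each gene in each library, with Setd2SRI/wt in red on the left and wild type in blue on the right of each pair, triangles for males and circles for females, and a bar at each group's mean. SR genes stand left of the line and hnRNP genes right of it, and in 0 of the 31 genes are the groups apart.

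The hnRNP A group binds exonic silencers and counters SR proteins. Hnrnpa1 had 281, 239.8 and 277 CPM in Setd2SRI/wt, against 252, 230.1, 267 and 252 CPM in wild type (log2 fold change 0.09 ± 0.10, SE, adjusted p = 0.889 in edgeR), and the value was -0.004 without the Setd2SRI/wt male. Hnrnpa2b1, which also carries mRNA into dendrites, had 652, 546 and 666 CPM in Setd2SRI/wt, against 646, 618, 676 and 608 CPM in wild type. Its lowest value came from Setd2SRI/wt female 1 and its highest from wild-type female 1. Hnrnpa3 averaged 248 ± 22.3 CPM in Setd2SRI/wt and 249 ± 13.01 CPM in wild type. Hnrnpa0 averaged 136 ± 23.1 CPM in Setd2SRI/wt and 138 ± 5.78 CPM in wild type, and Setd2SRI/wt females 1 (159 CPM) and 2 (113 CPM) were its extremes. Both Hnrnpa1 and Hnrnpa3 share stretches of 76 bases, the read length, with other annotated genes, mostly pseudogenes, over 27.0% and 26.1% of their own stretches. The 12 pseudogenes of Hnrnpa1 and the 36 of Hnrnpa3 held counts equal to 2.07% and 2.99% of the gene's own.

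Hnrnpdl had the largest positive value among hnRNP genes. With Hnrnpd (AUF1), which binds AU-rich elements in mRNA, and Hnrnpab it forms a group of close relatives. Hnrnpdl had 273, 273 and 266 CPM in Setd2SRI/wt, against 228, 224, 259 and 274 CPM in wild type (log2 fold change 0.12 ± 0.10, SE, adjusted p = 0.819 in edgeR). The mutants were close together, and wild-type female 2 was as high as they were. Without the Setd2SRI/wt male the value was 0.01. Hnrnpd averaged 192 ± 15.3 CPM in Setd2SRI/wt and 197 ± 12.4 CPM in wild type. Hnrnpab averaged 106 ± 13.1 CPM in Setd2SRI/wt and 107 ± 7.01 CPM in wild type, and 29.1% of its exonic bases lie opposite to exons of Phykpl.

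Hnrnpc, which binds uridine tracts of nascent RNA, had 190.5, 214 and 180.2 CPM in Setd2SRI/wt, against 196, 209.8, 192 and 147 CPM in wild type (log2 fold change 0.10 ± 0.12, SE, adjusted p = 0.893 in edgeR). Wild-type female 2 was the low one, and without it the value was -0.02. Its 2 pseudogenes with shared stretches held counts equal to 5.36% of its own.

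Members of the hnRNP F/H group bind G tracts. Hnrnph3 had the largest negative value of all 31 genes, with 78.8, 63.2 and 73.8 CPM in Setd2SRI/wt, against 74.4, 73.8, 79.5 and 82.8 CPM in wild type (log2 fold change -0.11 ± 0.11, SE, adjusted p = 0.854 in edgeR). The Setd2SRI/wt male and female 2 lay within the wild-type range, and female 1 lay below it. The value was -0.24 without that male, -0.03 without Setd2SRI/wt female 1, -0.07 without wild-type female 2 and -0.004 without both pituitary-rich libraries. Exons of Rufy2 lie opposite to 3.65% of its exonic bases, and Rufy2 held 165% of its count. Hnrnph1 had 436, 372 and 374 CPM in Setd2SRI/wt, against 437, 415, 417 and 354 CPM in wild type. Hnrnph2, on chromosome X, averaged 145 ± 11.6 CPM in Setd2SRI/wt and 145 ± 13.1 CPM in wild type. Hnrnpf, the least abundant hnRNP gene by CPM, averaged 28.9 ± 3.48 CPM in Setd2SRI/wt and 29.9 ± 1.24 CPM in wild type. Over its transcripts 55.7% of the stretches of 76 bases occurred in other genes, so its count is uncertain.

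Hnrnpl, which binds CA repeats, had 235, 202 and 226 CPM in Setd2SRI/wt, against 221, 206, 206 and 212 CPM in wild type (log2 fold change 0.07 ± 0.10, SE, adjusted p = 0.906 in edgeR). The mutants again spanned the wild-type values. Hnrnpll, known for splicing of CD45 in lymphocytes, averaged 89.0 ± 9.06 CPM in Setd2SRI/wt and 92.8 ± 5.48 CPM in wild type. Hnrnpk, which binds cytosine-rich RNA through KH domains, averaged 388 ± 25.5 CPM in Setd2SRI/wt and 398 ± 12.3 CPM in wild type.

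Hnrnpm, which binds GU-rich RNA, had 184, 139 and 152 CPM in Setd2SRI/wt, against 157, 167, 149 and 133 CPM in wild type (log2 fold change 0.11 ± 0.10, SE, adjusted p = 0.852 in edgeR). It shares 14.7% of its exonic bases with March2 on the same strand, and March2 held counts equal to 37.3% of its own. Hnrnpr, which binds beta-actin mRNA in motor axons, had 109.5, 111 and 129 CPM in Setd2SRI/wt, against 111, 114, 122 and 124 CPM in wild type. Its log2 fold change was -0.04.

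Hnrnpu, a nuclear matrix protein whose haploinsufficiency causes epilepsy and intellectual disability in humans, was the most abundant of the 31 by CPM. It averaged 779 ± 57.4 CPM in Setd2SRI/wt and 760.2 ± 51.0 CPM in wild type, a log2 fold change of 0.03 ± 0.10 (SE). Hnrnpul1 averaged 106 ± 1.65 CPM in Setd2SRI/wt and 101 ± 7.13 CPM in wild type. Hnrnpul2 averaged 282 ± 14.1 CPM in Setd2SRI/wt and 285 ± 12.7 CPM in wild type, and had the smallest fold change of all (-0.01).

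By sex, 0 of the 31 genes passed (0.0463% of all tested genes did), and 1, Hnrnpm, had an unadjusted p under 0.05, against 4.72% of all tested genes (2.22% higher and 2.49% lower in males). Hnrnpm had 184, 157 and 167 CPM in males, against 139, 152, 149 and 133 CPM in females. All 3 males lay above all 4 females, in a gene picked for its small p. The share of all tested genes so split by sex was not counted. Hnrnpm shares exonic bases with March2 on the same strand, and the part of that in its sex difference was not tested. The value failed the correction (log2 fold change, male over female, 0.25 ± 0.10, SE, adjusted p = 0.999 in edgeR). Without the Setd2SRI/wt male the value was 0.20, without wild-type male 2 it was 0.25 and within wild type alone 0.20, with unadjusted p-values of 0.150, 0.0537 and 0.0983 in edgeR. The next 4 by p were all hnRNP genes, Hnrnph1 (0.18), Hnrnpdl (-0.13), Hnrnpr (-0.13) and Hnrnpc (0.14). Among SR genes the smallest p belonged to Srsf3 (0.10) and Srsf6 (0.11), and all of these had an adjusted p of 0.999 in edgeR. Hnrnph1 averaged 429 CPM in males and 379 CPM in females. The Srsf6 value was -0.02 within wild type alone.

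The genotype difference was also tested for a difference between the sexes, which rests on 1 Setd2SRI/wt male. By adjusted p 0 of the 31 genes passed, as did 0% of all tested genes. At an unadjusted p under 0.05 there was 1 of the 31, Srsf11, against 3.33% of all tested genes. Its product term was 0.54 ± 0.21 (SE, adjusted p = 0.999 in edgeR), with the Setd2SRI/wt male at 333 CPM. Srsf6 came next with 0.32 ± 0.20 (SE).

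The annotation of their transcripts was not used to choose the genes. GENCODE vM21 lists a transcript subject to nonsense-mediated decay for 9 of 11 SR genes and 10 of 20 hnRNP genes, against 20.8% of 22028 protein-coding genes. Such transcripts often hold a poison exon, by which splicing factors are known to limit their own level. A transcript with a retained intron is listed for 8 of 11 SR genes and 14 of 20 hnRNP genes, against 41.4% of protein-coding genes. The gene counts add all these forms together. The 22028 genes include some with too few counts to be tested here. No share was counted over genes of like level or like number of annotated transcripts.

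Around the SR and hnRNP genes, other splicing genes were set beside them. Of 26 SR-related regulators, such as Sfswap and the arginine- and serine-rich Rsrp1, 0 passed and 0 had an unadjusted p under 0.05 (median log2 fold change 0.03). Over all tested genes 0.0174% passed and 8.95% had such a p. Sfswap had 139, 93.1 and 117 CPM in Setd2SRI/wt, against 112, 103, 95.1 and 103 CPM in wild type, and Rsrp1 had a log2 fold change of 0.18. Their summed level was 5411, 4232 and 5080.5 CPM in the Setd2SRI/wt male and females 1 and 2, with 4620 to 5096 CPM in wild type. The male was thus the highest and female 1 the lowest of all libraries, as for Srsf1, Srsf5, Srsf6, Srsf11 and Hnrnpl. Of 11 genes for kinases, a phosphatase and the importer of SR proteins, 0 passed and 0 had an unadjusted p under 0.05. The kinase genes Srpk1 and Clk2 had log2 fold changes of 0.18 and 0.19, with adjusted p-values of 0.708 and 0.716 in edgeR. Among 22 hnRNP-like genes 0 passed and 0 had an unadjusted p under 0.05, with Pcbp3 at -0.28 and Rbmxl1 at -0.21 nearest to it.

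Among regulators of neuronal splicing 0 of 25 tested passed. With no filter on low counts 1 of 28 did, as did 331 of all 33585 genes. At an unadjusted p under 0.05 there were 7 of 25, 3 with positive and 4 with negative values, against 8.95% of all tested genes. Celf5, a CELF-family RNA-binding protein of neurons, had 265, 245 and 281 CPM in Setd2SRI/wt, against 217, 211, 194 and 209 CPM in wild type (log2 fold change 0.35 ± 0.10, SE, adjusted p = 0.216 in edgeR). Khdrbs3 (SLM2), which regulates exons of neurexins, had 169, 166 and 166 CPM in Setd2SRI/wt, against 141, 136, 142 and 106 CPM in wild type (log2 fold change 0.37 ± 0.11, SE, adjusted p = 0.257). For both genes all 3 mutants lay above all 4 wild-type brains. The others, named after their values were seen, were Celf3 (0.33), Celf6 (-0.54), Rbm38 (-0.84), Khdrbs2 (-0.37) and Elavl2 (-0.22). Celf6 overlapped between the groups, and its highest value, 44.1 CPM, came from wild-type female 2. Without that library 4 of 25 had an unadjusted p under 0.05, against 1282 of all 16334 genes tested there. It was 4 of 25 when the mutant male was left out (925 of 17383 over all genes). Among the female brains, with no replicate block, it was 3 of 25 (704 of 17014 over all genes). With the block it was 2 of 25 (758 of 17014 over all genes). Markers of cortex and hippocampus summed to 1136 to 1166 CPM in Setd2SRI/wt and 752 to 1029 CPM in wild type. Of these 4 of 8 were apart and higher, as were 3.83% of all tested genes. Those of midbrain and thalamus summed to 113 to 161 CPM in Setd2SRI/wt and 227 to 261 CPM in wild type. Of these 4 of 8 were apart and lower (4.08% of all tested genes), and 1 passed (adjusted p = 0.0295 in edgeR), as did 0.0174% of all tested genes. Those of hindbrain and cerebellum summed to 59.3 to 93.5 CPM in Setd2SRI/wt and 92.3 to 138 CPM in wild type. Of these 0 of 9 were apart, and all 5 tested had negative values (median log2 fold change -0.74). At an unadjusted p under 0.05 in edgeR, 7 of 8 cortex and hippocampus markers were higher, against 3.84% of all tested genes. At such a p 6 of 7 tested midbrain and thalamus markers and 4 of 5 tested hindbrain and cerebellum markers were lower, against 5.11%. The part of these regional markers in the values of the neuronal regulators was not tested.

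Of 36 core spliceosome genes 0 passed and 1, Snrpf, had an unadjusted p under 0.05, against 8.95% of all tested genes. Snrpf, an Sm ring protein, had 4.40, 5.06 and 3.64 CPM in Setd2SRI/wt, against 5.96, 6.66, 6.94 and 5.50 CPM in wild type (log2 fold change -0.54 ± 0.22, SE, adjusted p = 0.456 in edgeR). These levels are lower than those of any SR or hnRNP gene. Snrnp70, the U1 protein that SR proteins contact, had a log2 fold change of 0.23 ± 0.11 (SE) with an adjusted p of 0.592.

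**Figure D5:**
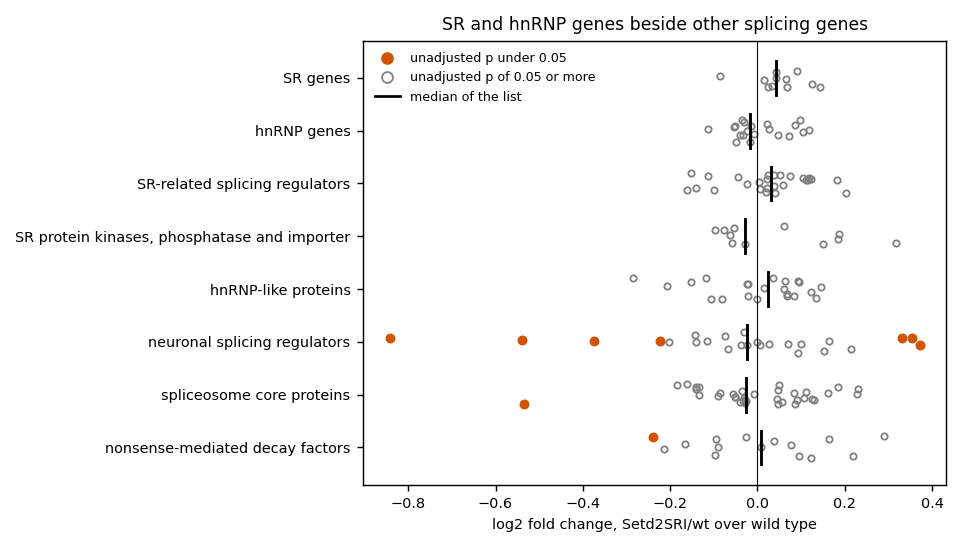
Log2 fold change (Setd2SRI/wt over wild type) of each gene in the SR and hnRNP families and in 6 lists of other splicing and decay genes, with a black bar at each median and orange points for an unadjusted p under 0.05. Orange points appear among neuronal splicing regulators (7 of 25), core spliceosome genes (1 of 36) and decay factors (1 of 15), and not among SR or hnRNP genes. Over all tested genes 8.95% had such a p.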

How the data were processed

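Each of the 7 newborn brains gave 1 library. Per the labels' protocols, 100 ng of RNA went into a stranded kit after removal of ribosomal RNA, with paired reads of 76 bases. The authors deposited raw counts per gene. The submitters' processing notes name mm10 and the tools featureCounts, HISAT2, Trim Galore, FastQC and edgeR. Their versions, the strand setting and the treatment of multi-mapping reads are not given in the sources used here. One mutant column differs slightly from its sample's description and was matched as the only mutant male. All 55536 identifiers and symbols matched GENCODE vM21.

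Low counts were removed with filterByExpr on the design. edgeR 4.0.16 (R 4.3.3) then gave TMM scaling and a two-sided quasi-likelihood test with terms for sex and genotype, with Benjamini-Hochberg adjustment over 17260 genes. The SE is the absolute log2 fold change over the square root of F, and intervals of 95% rest on it. RPKM used exonic lengths from GENCODE vM21, since the table holds none. The fit was tested on simulated data, and figures were drawn with matplotlib 3.10.9. Alternatives used DESeq2 1.42.0 and limma 3.58.1. Values in every library are given for the 4 SR and 6 hnRNP genes of smallest genotype p, the 2 of each family of smallest sex p, the 2 of smallest interaction p and the highest and lowest of each family by RPKM. From each other list the 2 genes of smallest genotype p are named. The genes, lists and tests were chosen with earlier results of these data known. Overlap with other genes was checked for the SR and hnRNP genes alone.

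Pairs of libraries of 1 genotype differed by a chi-square of 2.80 to 13.2 for each degree of freedom, more than counting noise, so each was kept as a sample. Litters are not named in the labels, and p-values reflect the spread among these animals alone.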

Additional observations from a re-analysis of the deposited data

Results flagged for a closer look

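In 2 of the 31 genes 1 wild-type library stood apart from the other 3, by the size of its gap over the range of the group. Both times it was wild-type female 2. Chance flags about 1 in 20 groups, and 31 genes were looked at. For Srsf3 the gap was 0.917 of the range, with 158 CPM in wild-type female 2 and 179.9 to 182 CPM in the other wild-type brains. For Hnrnph2 the gap was 0.85 of the range, with 125 CPM in wild-type female 2 and 148 to 153 CPM in the others. This library also held the most pituitary marker RNA (29.8 CPM), whose part in these values was not tested.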

How the results depend on the processing

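The count of SR and hnRNP genes called by genotype was 0 under all 17 alternatives, and by sex 0 under all 9. At an unadjusted p under 0.05 the genotype count was 0 or 1, and the 1 was Srsf11, without Setd2SRI/wt female 1 and without both libraries with pituitary transcripts (an alternative chosen after seeing the data). Of 206 values for 14 single-gene results, 196 kept their direction and side of the threshold. Leaving out each library gave -0.076 to 0.257 for Srsf11, -0.0038 to 0.157 for Hnrnpa1, -0.023 to 0.216 for Hnrnpc and, by sex, -0.019 to 0.171 for Srsf6. Srsf11 was -0.076 without the Setd2SRI/wt male, -0.077 in females alone and -0.082 there with a replicate block, and Hnrnpa1 was -0.0038, -0.0042 and -0.0077 in the same order. Hnrnpc was -0.023 without wild-type female 2 and -0.092 once both pituitary-rich libraries were dropped. The sex value of Srsf6 was -0.019 without the Setd2SRI/wt male and -0.020 within wild type. The count over all genes by genotype, 3, was 1 with total counts, a mean CPM of at least 1 or limma-voom, 331 with no filter, 64 with DESeq2, 0 with no sex term (1393 genes at an unadjusted p under 0.05), 1 in females alone, 80 there with a replicate block, 57 once both pituitary-rich libraries were dropped and 0 to 110 leaving out each library (110 when wild-type female 1 was dropped, 11 when the first mutant female was). By sex the count of 8 was 15 within wild type and 8 to 20 leaving out each library. The causes were not tested. Same-numbered females did not deviate together (r = -0.058 over genes), so the numbers were not taken as pairs. The shallowest library, wild-type male 2, held 4192021 counts, and the least abundant SR gene had 65 counts there.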

Other observations

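Decay factors read the poison exons of SR and hnRNP genes. Of 15 genes of nonsense-mediated decay and the exon junction complex 0 passed by genotype, and 1 had an unadjusted p under 0.05. Such a p was reached by 8.95% of all tested genes. Smg1, the kinase that phosphorylates UPF1, had 253, 218 and 286 CPM in Setd2SRI/wt, against 306, 300.5, 296 and 293 CPM in wild type (log2 fold change -0.24 ± 0.11, SE, adjusted p = 0.538 in edgeR). All 3 mutants lay below the narrow wild-type range. Upf3a had 45.8, 46.0 and 42.2 CPM in Setd2SRI/wt, against 39.2, 36.9, 40.2 and 36.7 CPM in wild type (log2 fold change 0.22 ± 0.11, SE, adjusted p = 0.576), and the groups were also apart. Groups were apart in 7.91% of all tested genes.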
